A study of Mus musculus with 8 samples.

Results

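The wild-type liver transcriptome was described from 3 libraries of 8 in the series, all mouse liver of genotype WT. They were chosen by that label alone, and the other 5, from Alb-cre Mfrn1-/- Mfrn2 -/- livers that lack both mitoferrins in hepatocytes, enter no value below. The wild-type mice are described as age-matched controls kept on standard rodent chow. Strain, sex, age in weeks, time of collection and any floxed alleles of the controls were not among the labels. The libraries were made from total RNA with a stranded kit after ribosomal RNA depletion, so noncoding RNAs and RNAs without a poly(A) tail could be measured beside messenger RNAs. The libraries are numbered 1 to 3, and whether they are 3 animals is not stated, so every SD below measures the spread between these libraries, which may be technical.

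The deposited table lists 15864 genes with a read count and an FPKM value, that is, the count divided by exon length and by the size of the library. The libraries held 43072524, 42321409 and 35484499 counts. FPKM was used to compare levels between genes, and counts per 1000000 (CPM), scaled between libraries by the trimmed mean of M values (TMM), to compare 1 gene between libraries. Library 3 stood apart in short RNAs, which are described with their values below, and the pair of libraries 2 and 3 had the lowest rank correlation across genes (which are not independent replicates), 0.980, against 0.982 for libraries 1 and 3 and 0.987 for libraries 1 and 2.

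The liver is built mostly of hepatocytes, which make the greater part of the proteins of blood plasma and run the urea cycle, gluconeogenesis, lipid and bile acid synthesis and the chemical modification of foreign compounds. These secreted and metabolic products are made from a limited number of very abundant messenger RNAs. Beside them, every cell holds abundant short noncoding RNAs made by RNA polymerase III, and mitochondria transcribe their own small genome from both strands.

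Alb, which encodes serum albumin and marks hepatocytes, had the highest mean level of all genes per unit of length. Its FPKM was 36431, 34091 and 33790 in libraries 1, 2 and 3. The values were close to each other, and in every library Alb alone held about 7 in 100 counts, with 7.45%, 6.97% and 6.91%. The 6 hepatocyte markers Alb, Ttr, Apoa1, Serpina1a, Cyp2e1 and Pck1 together held 9.18%, 8.85% and 8.87% of counts.

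Markers of the other liver cells were present at far lower shares of counts. The 5 Kupffer cell markers listed, from the resident macrophages, held 0.0434%, 0.0538% and 0.0303%, sinusoidal endothelial markers 0.0437%, 0.0461% and 0.0494%, and stellate cell markers 0.0600%, 0.0571% and 0.0565%. All 5 Kupffer markers were highest in library 2 and lowest in library 3. Cd5l, a secreted macrophage protein, read 165.3, 218.5 and 108.4 CPM, a range of 2.02-fold. In bulk tissue, fewer cells of a type and less RNA per cell cannot be told apart. T and NK cell markers (4 listed) stayed under 1 CPM on average, the 4 neutrophil markers together summed to 5.66, 11.8 and 3.58 CPM, and of the skeletal muscle list only Mylpf was listed, at 0.43, 0.72 and 0.20 CPM. Xist, the noncoding RNA of the inactive X chromosome, was present in all 3 libraries at 588, 514 and 1079 CPM.

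The counts were concentrated in few genes. On average 18 genes held 25% of counts, 175 held 50% and 3842 held 90%. For 50% of counts it took 183 genes in library 1, 159 in library 2 and 180 in library 3. The top 10 genes held 19.7% and the top 100 held 43.3%. By FPKM, which divides out gene length, the distribution was steeper, and 48 genes made up 50% of the summed values. Between 10922 and 11005 genes reached 1 FPKM in a library, and 59 to 68 reached 1000 FPKM.

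Among the 20 genes of highest mean FPKM, 12 encoded proteins of the secreted class. After Alb came Apoa2, a protein of high-density lipoprotein, with an FPKM of 13539, 12701 and 13896. Apoe, the ligand that lets lipoprotein remnants be taken up, had 8671, 8346 and 8547. The transferrin gene Trf, whose product carries iron in plasma, had 7054, 8282 and 6271. Alb, Apoa2 and Apoe varied little between libraries, whereas Trf was highest in library 2 and lowest in library 3, a 1.33-fold range in CPM.

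Fabp1, the fatty acid binding protein of the liver cytosol, had an FPKM of 6869, 6224 and 7442. It was a messenger RNA of this top 20 whose product stays inside the cell. Further down were Apoc1, Ahsg (fetuin-A), Ttr (transthyretin), Apoa1, Gc (vitamin D binding protein) and the fibrinogen chains Fgb and Fgg, with mean FPKM from 6169 for Apoc1 to 3102 for Fgg. Gc was among the steadiest of them, at 4086, 3995 and 3932. Serpina3k, a serine protease inhibitor from a cluster of near-identical genes, was the least steady, with 2586 in library 1 against 6735 and 7096 in libraries 2 and 3.

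Noncoding RNAs took 4 of the top 6 places by FPKM. Rn7sk, the 7SK RNA that holds the elongation factor P-TEFb inactive, had an FPKM of 26838, 26984 and 29785. Rpph1, the RNA of ribonuclease P that trims transfer RNA precursors, had 24449, 14430 and 37133. Rmrp, the related RNA that takes part in ribosomal RNA processing, had 9263, 6280 and 14149. Gm23935, an entry of 57 exonic bases with no function given in the sources, had 11961, 16905 and 11976. It is annotated as a microRNA gene, and its span overlaps that of a protein-coding gene. Rpph1 and Rmrp were both highest in library 3 and lowest in library 2, by 2.56-fold and 2.24-fold in CPM, while Rn7sk ranged over 1.14-fold.

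The order of neighbouring genes in this top 20 was mostly not settled by 3 libraries. Of the 19 neighbouring pairs, 5 stood in the same order in all libraries, and 2 had ranges that did not overlap: Alb above Rn7sk, and Apoe above Gm20425. Gm20425 and Trf had almost the same FPKM, and their exons overlap: 69.6% of the exonic bases of Gm20425 lie in Trf, and its count was 0.914, 0.914 and 0.917 of that of Trf. The deposited counts gave the reads of shared exons to each gene, so these entries are not independent.

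**Figure D1:**
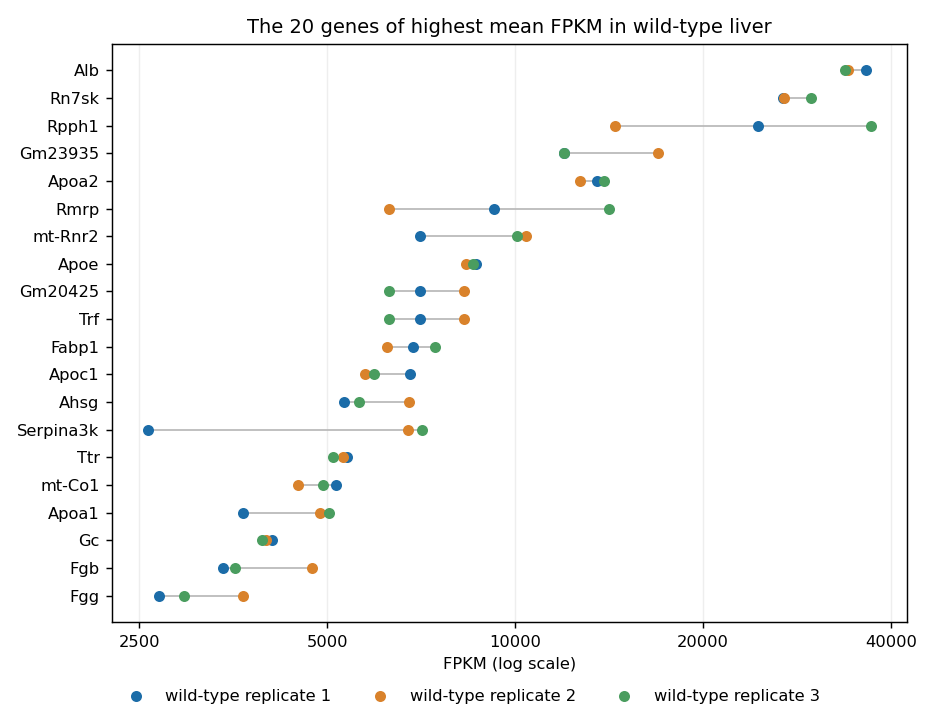
FPKM (horizontal axis, log scale) of the 20 genes with the highest mean FPKM, 1 row per gene, with 1 point per wild-type library and a line from the lowest to the highest. Alb lies between 33790 and 36431, while Rpph1, Rmrp and Serpina3k each spread over more than 2-fold.

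Genes were sorted into non-overlapping classes by annotated gene type and by gene lists. Secreted proteins held the largest share of counts of the named classes: 29.1%, 32.1% and 29.5% in libraries 1, 2 and 3, a mean of 30.2% ± 1.59 (SD, n = 3) from 225 genes. Metabolic enzymes held 19.5%, 17.4% and 18.1%, a mean of 18.3% ± 1.05 (SD, n = 3) from 431 genes. Library 2 was highest for secreted proteins and lowest for metabolic enzymes.

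Noncoding RNAs, with 1334 genes, held 3.14%, 2.83% and 4.27% of counts, a mean of 3.42% ± 0.76 (SD, n = 3). Their share of summed FPKM was 19.1%, 17.4% and 25%, and library 3 was highest on both scales. FPKM divides by exonic length, whose median was 805 bases for noncoding genes and 2135 bases for secreted proteins. These medians alone do not account for the difference between scales. Much of the FPKM share lay in short entries: Rn7sk held a mean of 5.47% of summed FPKM, Rpph1 4.92%, Gm23935 2.69% and Rmrp 1.93%. Their exonic lengths were 331, 319, 57 and 271 bases. The entries Gm22133 and Gm26377, with 0.596% and 0.355% of summed FPKM, lie wholly in exons of the protein-coding genes Ftl1 and Eef1a1. Of the noncoding genes, 790 have a span that overlaps that of a protein-coding gene, with introns included and on either strand. Part of their reads may belong to it, but how much was not tested. Rmrp, with a mean of 0.268% of counts, is among them. Without those genes the noncoding share of counts was 2.64%.

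Transcripts of mitochondrial DNA held 2.25%, 2.73% and 2.95% of counts, a mean of 2.64% ± 0.357 (SD, n = 3) from the 28 genes listed. Of this mean, 1.6% came from the 2 mitochondrial ribosomal RNAs, in libraries depleted of ribosomal RNA. Another 1.04% came from 8 of the 13 mitochondrial messenger RNAs. The share is therefore not the full level of mitochondrial transcripts. The 297 nuclear genes for mitochondrial proteins outside the metabolic class held 2.54%, 2.27% and 2.38%, a mean of 2.40% ± 0.136 (SD, n = 3). Cytosolic ribosomal proteins held 0.33% ± 0.0237 (SD, n = 3). Ribosomal protein genes have many near-identical processed pseudogenes, and how reads with several matches were handled is not given in the sources used here, so their level is uncertain.

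**Figure D2:**
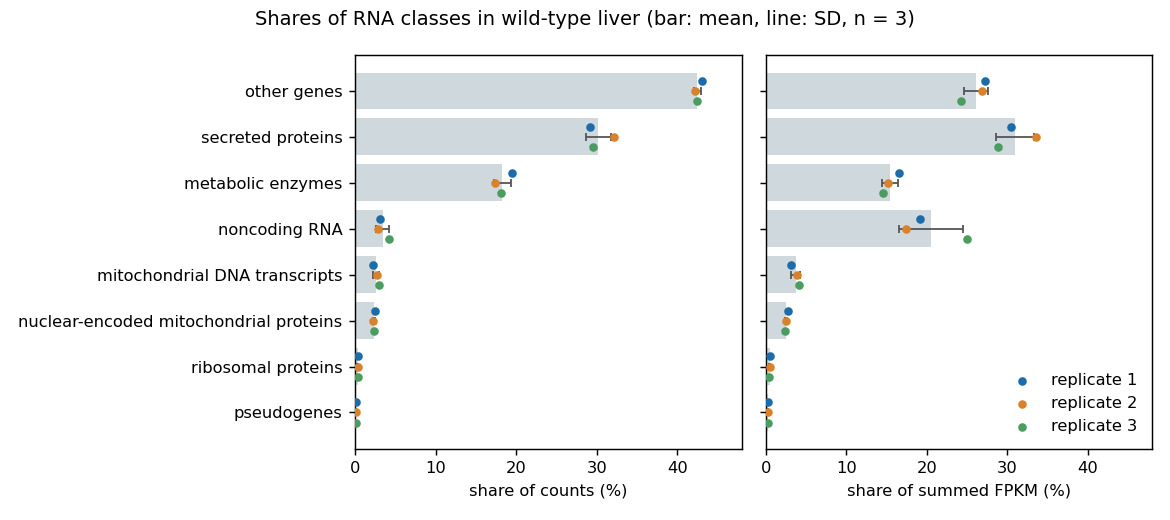
Share of counts (left) and of summed FPKM (right), in percent, for each class, with bars for the mean of 3 wild-type libraries, lines for the SD and 1 point per library. Noncoding RNA holds 3.42% of counts and 20.5% of summed FPKM, and secreted proteins hold about 30% on both scales.

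Within the secreted class, the 16 plasma transport proteins held 13.3%, 13.6% and 12.3% of counts (mean 13%), of which Alb made up a mean of 7.11%. The 14 apolipoproteins, which carry plasma lipids, held 5.31%, 5.46% and 5.90%. The 22 coagulation factors held 2.99%, 3.61% and 3.01%, and the 22 complement genes 1.56%, 2.06% and 1.58%. Both of the last groups were highest in library 2, as were 14 of the 22 genes in each.

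Hepcidin, the hormone that limits iron release into plasma, is encoded by Hamp, which had an FPKM of 1356, 1582 and 862. Its paralog Hamp2 had 474.6, 115.4 and 117.9, so library 1 alone was high. The 2 mitoferrin genes, for the iron carriers of the inner mitochondrial membrane, were modest in level. Slc25a28 (mitoferrin 2) had an FPKM of 12.2, 10.8 and 10.9, and Slc25a37 (mitoferrin 1) had 2.95, 2.11 and 3.80. The ranges of the 2 did not overlap.

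Cytochrome P450 genes, which oxidise steroids and foreign compounds, held 2.18%, 1.91% and 2.19% over 65 listed genes. The 24 genes of amino acid breakdown held 2.15%, 1.90% and 1.71%, and the 11 genes of the urea cycle and ammonia handling 1.5%, 1.51% and 1.08%. Cps1, which makes carbamoyl phosphate in the first step of the urea cycle, had 6573, 8205 and 5032 CPM. It was lowest in library 3, as were 9 of the 11 genes in that group.

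Nuclear genes of oxidative phosphorylation were among the steadiest groups. Among genes with a mean of at least 1 CPM, 44 were of complex I, 24 of complexes II to IV and 15 of ATP synthase. None of these differed 2-fold between libraries. The share over all genes was only 5.97%, and the 22 coagulation factors and 14 apolipoproteins also had 0 past 2-fold. The median SDs of log2 CPM were 0.08, 0.10 and 0.09, against 0.145 over all genes. Atp5a1, the alpha subunit of ATP synthase, had 1225, 1155 and 1118 CPM. Ndufa4 had 240.5, 205.8 and 231.9 CPM.

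Transcripts of mitochondrial DNA behaved differently from those nuclear partners. The large ribosomal RNA mt-Rnr2 had 10919, 16734 and 16055 CPM, and mt-Rnr1, the small one, had 964.5, 1794 and 1656 CPM. Library 1 was lowest for both, although ribosomal RNA depletion was part of library preparation. The messenger RNA of cytochrome oxidase subunit 1, mt-Co1, was steady at 7814, 7029 and 7662 CPM.

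Other mitochondrial messenger RNAs were highest in library 3. The cytochrome b transcript mt-Cytb had 788.9, 563.9 and 1297 CPM. The complex I transcript mt-Nd4 had 272.0, 148.1 and 575.2 CPM. mt-Nd6, the only messenger RNA transcribed from the other strand, had 37.8, 35.4 and 183.5 CPM, a 5.18-fold range. Its SD of log2 CPM was 1.34, and 0.07 without library 3. Of the 8 mitochondrial messenger RNAs listed, 7 were highest in library 3, and 6 differed at least 2-fold. mt-Co2, mt-Co3, mt-Atp6, mt-Atp8 and mt-Nd4l were not analysed here.

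Across all genes, most levels were close between libraries. Of the 12497 genes with a mean of at least 1 CPM, 746 (5.97%) differed at least 2-fold between the highest and the lowest library. Between 2 libraries only, which leaves less room for a range, it was 497 without library 1, 414 without library 2 and 265 without library 3. This fold is a description of 3 libraries of 1 group and carries no test. Of the 746 genes, 168 were highest in library 1, 250 in library 2 and 328 in library 3. Lowest in these libraries were 203, 260 and 283. Among the 563 protein-coding genes past 2-fold, 147, 211 and 205 were highest in libraries 1, 2 and 3, and 164, 150 and 249 were lowest. Over all 12497 genes the highest and lowest library were not counted. Such counts for the gene groups above and below therefore have no share over all genes beside them. Whether they are particular to a group was not tested. The median SD of log2 CPM was 0.145, against 0.057 from counting alone. The share past 2-fold was 4.81% for protein-coding genes and 24% for noncoding genes outside mitochondrial DNA.

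**Figure D3:**
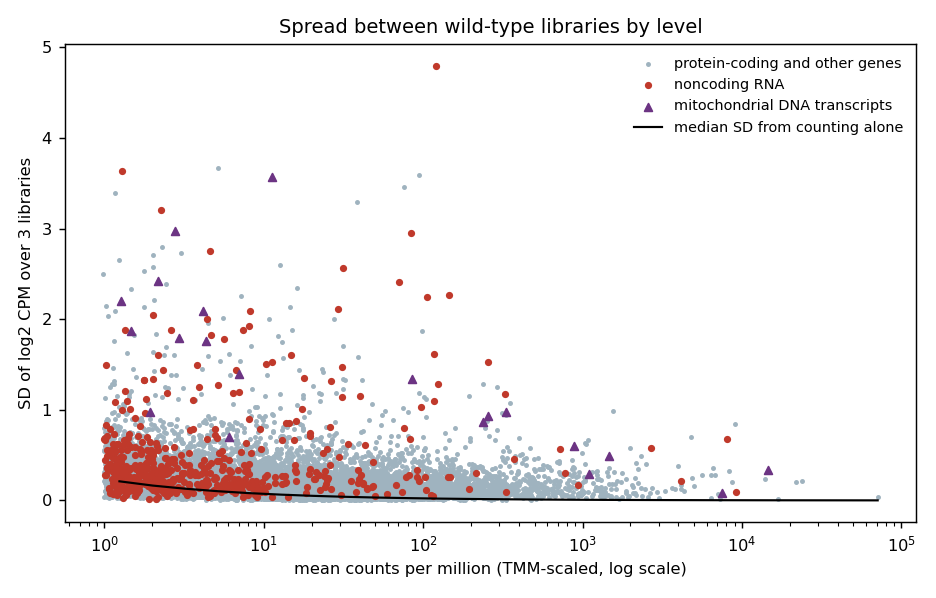
SD of log2 CPM over the 3 wild-type libraries (vertical axis) against mean CPM (horizontal axis, log scale), 1 point per gene, with the median SD from counting alone as a black line. The median SD over all genes is 0.145, and noncoding RNAs and mitochondrial DNA transcripts lie above most protein-coding genes of the same level.

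The steadiest protein-coding genes with at least 50 CPM varied less than counting error, which follows from choosing the lowest of many. Iigp1, an interferon-induced GTPase, had 478.3, 478.7 and 478.1 CPM. Aco1, the cytosolic aconitase that also serves as iron regulatory protein 1, had 312.5, 311.1 and 311.9 CPM. The other 8 were Dnajc22, Dstn, Mlf2, Msrb1, Aspdh, Uba1, Trip12 and Dido1.

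Short RNAs passed 2-fold more often than longer genes. Of the 189 genes with up to 300 exonic bases, 91 (48.1%) differed at least 2-fold, against 5.32% of longer genes. Of these 91, 80 were highest in library 3 and 80 were lowest in library 2. Short genes held 0.605%, 0.516% and 1.05% of counts.

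Small nucleolar RNAs guide the chemical modification of ribosomal RNA, and the H/ACA type guides pseudouridine and ends in an ACA box. Of this group, 41 small nucleolar and Cajal body RNAs had a mean of at least 1 CPM. They were highest in library 3 in 33 cases and lowest in library 2 in 36. Of the 41, 25 (61.0%) differed at least 2-fold, against 5.97% of all genes and 48.1% of genes with up to 300 bases. The listed 83 summed to 923, 646 and 2138 CPM. A pair of H/ACA RNAs from this group is shown in full, read 5′ to 3′ from the GENCODE transcripts of the mm10 build. Capitals mark the last ACA found by search in the last 8 bases. It has 1 base after it in Snora23, where an earlier ACA overlaps it, and 3 in Snora64. That earlier ACA of Snora23 has 3 bases after it, as in Snora64. Which ACA of Snora23 is the box was not tested. Snora81 was searched too and had no ACA in those bases, so it is not shown.
Snora23: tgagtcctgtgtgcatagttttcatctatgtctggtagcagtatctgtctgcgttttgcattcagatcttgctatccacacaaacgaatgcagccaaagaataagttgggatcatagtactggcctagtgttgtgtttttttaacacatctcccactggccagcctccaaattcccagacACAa
Snora64: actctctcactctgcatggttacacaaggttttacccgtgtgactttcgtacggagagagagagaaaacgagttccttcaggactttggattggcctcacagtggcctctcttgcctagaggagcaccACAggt

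Snora23, on chromosome 7 at 110046364 to 110046547 on the plus strand, had 1571, 529 and 9547 counts, or 35.7, 12.7 and 271 CPM. Snora64, on chromosome 17 at 24720772 to 24720905 on the plus strand, had 170, 44 and 694 counts. Both were highest in library 3 and lowest in library 2, by 21.3-fold and 17.9-fold. Their SDs of log2 CPM were 2.24 and 2.09, and 1.05 and 1.29 without library 3. Snora81 had 956, 158 and 7922 counts, and the vault RNA gene Vaultrc5, part of a large ribonucleoprotein particle, had 945, 282 and 6465. Of the 10 noncoding genes that varied most with a mean of at least 5 CPM, 9 had this order of libraries.

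The exception was Rprl3, with 39, 14922 and 47 counts, so that nearly all of it came from library 2. Its SD of log2 CPM was 4.80, and 0.40 without library 2. Rprl3 is annotated as a ribonuclease P RNA-like gene on chromosome 8, and Rpph1 lies on chromosome 14. The first 120 bases of the 2 RNAs are shown because reads of like sequences are hard to assign. They differ at 7 positions, in capitals.
Rpph1: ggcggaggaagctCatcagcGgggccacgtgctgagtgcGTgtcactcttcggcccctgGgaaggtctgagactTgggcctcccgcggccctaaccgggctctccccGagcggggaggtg
Rprl3: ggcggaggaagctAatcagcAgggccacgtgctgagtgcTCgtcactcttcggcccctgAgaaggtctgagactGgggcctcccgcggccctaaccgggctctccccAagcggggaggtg

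Over their whole length, 245 of 320 aligned positions were identical. Rprl3 made up 0.0116%, 7.11% and 0.0112% of the counts of both genes. Rpph1 itself was lowest in library 2, with 336026, 194865 and 420447 counts. The 2 genes together had 7802, 4957 and 11850 CPM without TMM scaling, so the sum was still lowest in library 2. Whether reads of Rpph1 were placed on Rprl3 in library 2 was not tested.

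Among protein-coding genes, the major urinary proteins were the most prominent variable family. They are small carriers of pheromones, made in the liver and excreted in urine, and in mice they are known to be made at higher levels in males under pulsed growth hormone. Of 15 Mup genes with a mean of at least 1 CPM, 14 (93.3%) differed at least 2-fold, against 5.97% of all genes. Library 1 was the lowest for 14 of the 15. The 18 listed genes summed to 1643, 3708 and 3277 CPM.

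Mup9 had 78, 8570 and 2632 counts, or 1.77, 205.4 and 74.7 CPM. Mup17 had 73, 6837 and 2143 counts, or 1.66, 163.8 and 60.8 CPM. Both were lowest in library 1 and highest in library 2, with SDs of log2 CPM of 3.59 and 3.46, against 0.10 from counting alone. Without library 1 these SDs were 1.04 and 1.02. Mup3, the most abundant member, moved less, with 1530, 2809 and 2678 CPM. Mup20, which encodes the male pheromone darcin, had 8.73, 11.7 and 22.7 CPM and so peaked in library 3.

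The Mup genes lie in a cluster on chromosome 4, and the 100 bases before the RefSeq start of 5 members are shown. All 5 were lowest in library 1 and highest in library 2, but by 112.7-fold for Mup9 and 1.84-fold for Mup3. Any part of these bases in that pattern was not tested. The windows are RefSeq sequences of build GRCm38.p6, read 5′ to 3′ along the gene, all from the minus strand. Capitals mark TATAA, searched on both strands in the last 45 bases. Only for Mup9 did the RefSeq start match the deposited gene start. For Mup17, Mup18, Mup10 and Mup3 the windows reach 39, 42, 44 and 25 bases into the deposited gene. In those genes the marked TATAA lies within that stretch.
Mup9: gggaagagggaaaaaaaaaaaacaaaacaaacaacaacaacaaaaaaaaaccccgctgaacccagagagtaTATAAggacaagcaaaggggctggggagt
Mup17: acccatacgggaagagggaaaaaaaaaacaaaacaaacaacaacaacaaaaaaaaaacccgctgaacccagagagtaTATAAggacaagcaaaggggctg
Mup18: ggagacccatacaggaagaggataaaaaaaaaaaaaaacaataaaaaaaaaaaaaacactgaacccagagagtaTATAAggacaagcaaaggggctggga
Mup10: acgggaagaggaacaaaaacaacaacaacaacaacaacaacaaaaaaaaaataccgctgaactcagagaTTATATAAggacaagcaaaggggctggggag
Mup3: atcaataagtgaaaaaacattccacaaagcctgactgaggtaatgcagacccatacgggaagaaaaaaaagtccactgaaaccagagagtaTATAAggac

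These windows were at chr4:60421953-60422052 for Mup9, chr4:61595833-61595932 for Mup17, chr4:61674095-61674194 for Mup18, chr4:60582156-60582255 for Mup10 and chr4:62087318-62087417 for Mup3. In Mup10 a match on the opposite strand overlaps the forward one. TATAA was present in the same 45 bases in 5.88% of all 32851 RefSeq windows. It was present in 3.42% of the windows of the protein-coding genes listed here, and in 13 of 71 windows (18.3%) among the 100 protein-coding genes of highest FPKM.

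The longest open reading frames of Mup10, Mup16, Mup17 and Mup18 were 98.7 to 99.3% identical in all 6 pairs. The longest frame found by the same search in Mup9 had 708 bases, in which 541 bases matched the 543 of Mup16 and of Mup10. Reads from 1 of these 5 genes can therefore match another, and the split of counts among them is uncertain. The sum over the family is less affected, and it was 2.26-fold higher in library 2 than in library 1.

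Genes known in mouse liver to differ by sex were also variable. Of the 16 female-biased genes with a mean of at least 1 CPM, 9 (56.2%) differed at least 2-fold. Of 11 male-biased genes it was 6 (54.5%), against 5.97% of all genes. The gene lists here and below were chosen with earlier results of these data known. Their shares are therefore a description and not independent support. Sult2a1, a sulfotransferase of bile acids and steroids, had 33.1, 12.1 and 4.43 CPM. Sult3a1, another female-biased sulfotransferase, had 163.1, 272.1 and 411.4 CPM. The order of libraries was opposite in the 2 genes, with Sult2a1 highest in library 1 and Sult3a1 in library 3.

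Slco1a1, a male-biased organic anion transporter, had 38.1, 179 and 94.2 CPM. Cish, an inhibitor of cytokine and growth hormone signalling, had 2.30, 11.8 and 25.2 CPM. Onecut1, a hepatocyte transcription factor, had 8.48, 34.8 and 73.9 CPM. These 3 genes were all lowest in library 1, but Slco1a1 peaked in library 2, and Cish and Onecut1 in library 3. Onecut1 shares exons with the listed gene Gm20649, so its reads are counted in both.

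Acute phase genes, which the liver makes in response to inflammatory cytokines, were highest in library 2 in 19 of 22 cases, and 7 (31.8%) differed at least 2-fold, against 5.97% of all genes. Saa1 (serum amyloid A1) had 25.2, 60.2 and 9.37 CPM. Orm2, an alpha-1 acid glycoprotein, had 6.66, 23.8 and 7.38 CPM. Lcn2, a carrier that withholds iron from bacteria, had 4.39, 20.3 and 6.10 CPM. Library 2 was the highest for all 3, and it was also the library with the highest Kupffer and neutrophil markers, whose part in the result was not tested.

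Lipid genes separated the libraries in another way. Fatty acid oxidation genes were highest in library 3 in 21 of 23 cases and lowest in library 2 in 20. Among the 563 protein-coding genes past 2-fold, 205 were highest in library 3 and 150 lowest in library 2. Those genes were picked by fold and the 23 were not, so the counts are not like for like. Of the 23, 6 (26.1%) differed at least 2-fold, against 5.97% of all genes. Cyp4a14, a fatty acid omega-hydroxylase, had 356.6, 141.2 and 500.2 CPM. Angptl4, which inhibits lipoprotein lipase, had 69.7, 30.4 and 124.3 CPM. Both were highest in library 3 and lowest in library 2.

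Cholesterol synthesis genes were highest in library 3 in 18 of 23 cases, with 4 (17.4%) past 2-fold, against 5.97% of all genes. Hmgcs1, which makes the substrate of HMG-CoA reductase, had 708.9, 813.9 and 1606 CPM. Fatty acid synthesis genes were highest in library 1 in 8 of 15 cases, a count for which no share over all genes was computed. Scd1, the desaturase that makes oleate, had 7543, 2935 and 3980 CPM. Fasn, the fatty acid synthase, had 1175, 1312 and 1002 CPM and was highest in library 2. Cyp7a1, the rate-limiting enzyme of bile acid synthesis, had 331.9, 178.2 and 68.2 CPM, so library 1 was highest and library 3 lowest.

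Cell cycle genes were low but variable: of 8 genes with a mean of at least 1 CPM, 5 (62.5%) differed at least 2-fold, and 7 were highest in library 1. The share past 2-fold was 5.97% of all genes and 11.1% of genes at 1 to 10 CPM. Ccnd1 (cyclin D1) had 140.9, 103.3 and 54.5 CPM. Pttg1 (securin) had 15.7, 13 and 2.67 CPM. Cdkn1a (p21), an inhibitor of the cell cycle in the same list, went the other way, with 3.66, 6.57 and 9.96 CPM.

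**Figure D4:**
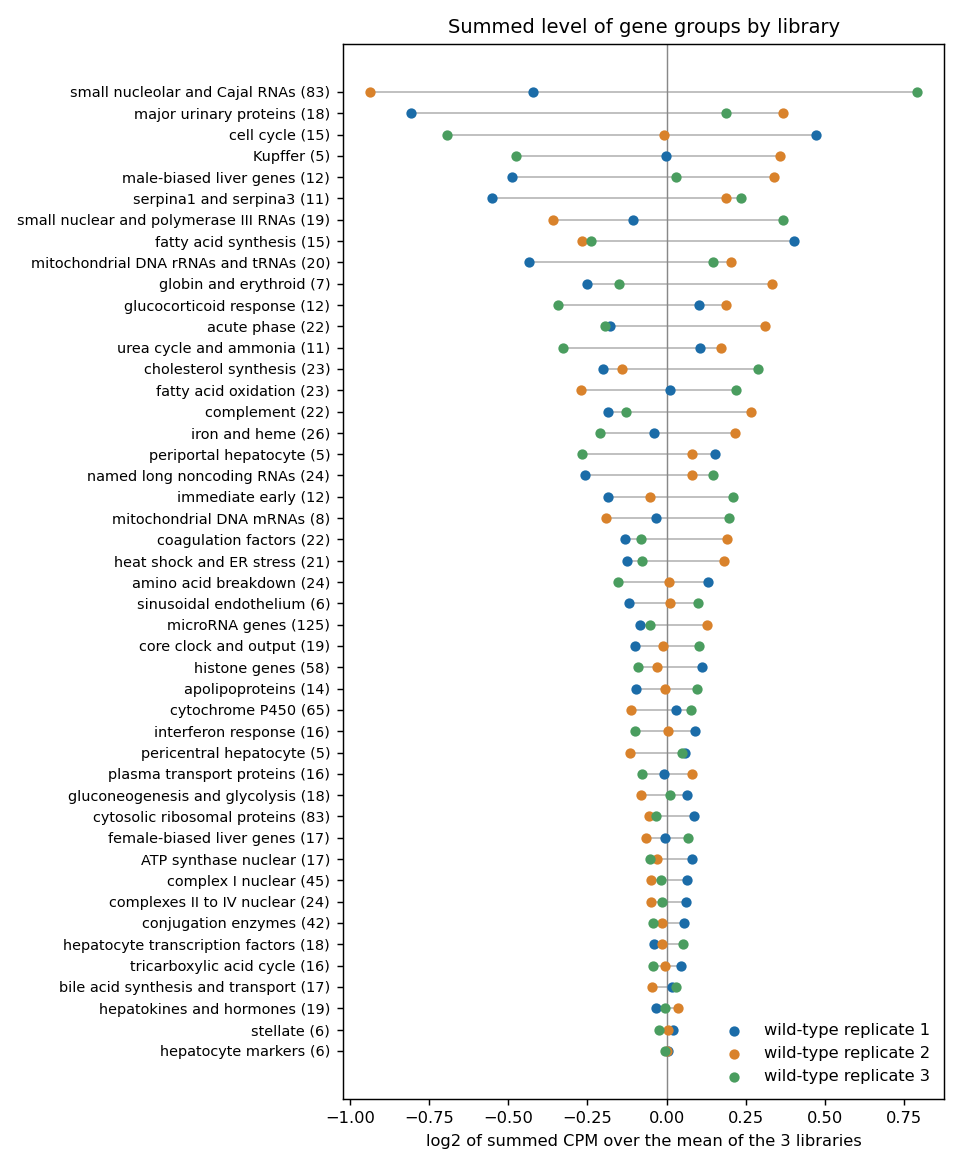
Log2 of the summed CPM of each gene group over its mean in the 3 wild-type libraries, 1 row per group with at least 5 genes at 1 CPM and the number of listed genes in brackets, 1 point per library. Small nucleolar RNAs and major urinary proteins spread furthest, and hepatocyte markers least.

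Several of the most variable genes belonged to no group. Ankrd55 had 34, 645 and 763 counts and was low in library 1. Loxl4, a lysyl oxidase that cross-links collagen, had 489, 69 and 1103 counts and was low in library 2. H2-Eb1, a class II histocompatibility chain, had 1337, 96 and 440 counts, and H2-T22, a nonclassical class I gene, had 1556, 246 and 1036. Both H2 genes were highest in library 1 and lowest in library 2. They belong to a polymorphic family with close paralogs, so their split is uncertain.

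Cyp2c44 had 112.9, 15 and 168 CPM, and Cyp2a22 had 59.4, 9.56 and 28.8 CPM. Both are cytochrome P450 genes from clusters of related copies, and both were lowest in library 2. Ces1b, a carboxylesterase from such a cluster, had 68.8, 369.4 and 269.7 CPM and was lowest in library 1.

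A further 2 of the most variable entries overlap a short RNA or have a near-identical copy. Timm23, a subunit of the inner membrane import channel, had 676, 296 and 2547 counts, but Gm23946, a short RNA gene that shares exonic bases with it, had 580, 159 and 2510. The difference between the 2 entries was 96, 137 and 37 counts. Of the exonic bases of Gm23946, 52.8% lie in Timm23, so this difference is not the count of the rest of Timm23. Hba-a2, an alpha globin gene, had 2, 390 and 219 counts. Its reading frame is 99.8% identical to that of Hba-a1, which had 1533, 1903 and 994 counts, and how reads that match both were counted is not known.

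The 30 protein-coding genes that varied most had SDs of log2 CPM from 1.23 to 3.67, with a median of 1.56. Without library 1 that median was 0.99, and single genes fell further, Hba-a2 from 3.67 to 0.42, Ankrd55 from 2.60 to 0.34 and Mup10 from 1.25 to 0.15. The last of them, Cyp3a16, had 1.2337, and the next gene, D3Ertd751e, had 1.2309. Library 1 was the lowest for 16 of the 30, library 2 for 9 and library 3 for 5. Without library 1, 11 of these 30 genes were among the 30 most variable. That number was 22 without library 2 and 22 without library 3.

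**Figure D5:**
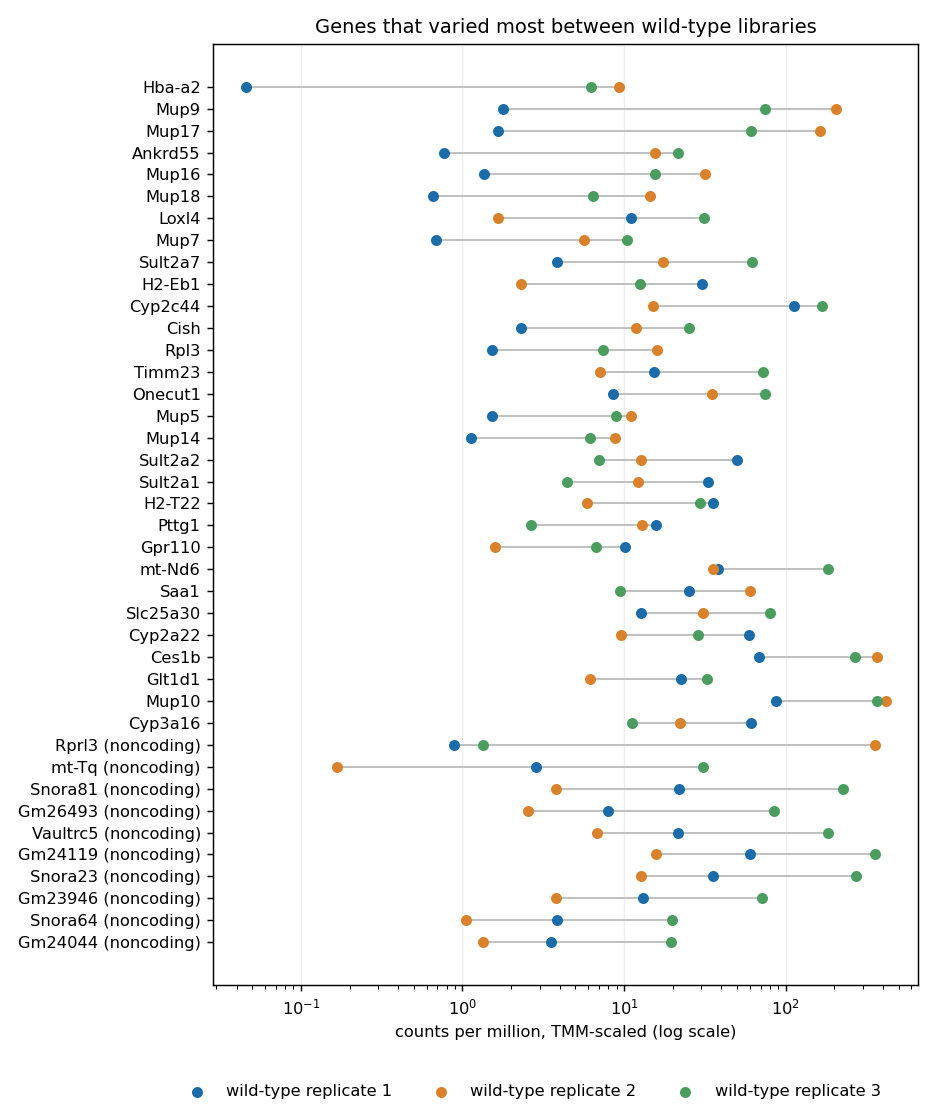
CPM (horizontal axis, log scale) in each wild-type library for the 30 protein-coding and the 10 noncoding genes with the highest SD of log2 CPM, 1 row per gene and 1 point per library. Library 1 is the lowest for 16 of the 30 coding genes, and library 3 is the highest for 9 of the 10 noncoding genes.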

How the data were processed

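The deposited read counts and FPKM values per gene were used for the 3 wild-type libraries. Per the submitters' processing notes, the authors used Novoalign 2.8, build mm10 and DESeq2. No source used here names the counting program, its strand setting or its handling of reads with several matches. The deposited FPKM equals the deposited count divided by exon length and a library denominator, of which the listed genes hold 99.97%. Reads of an exon shared by several genes were counted in each: 277 genes share at least 50% of their exons with a gene of more counts, and they hold 3.31% of counts. Of the IDs, 15626 were found in GENCODE release 21 for mouse, which gave gene types and positions.

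Log2 values were computed from the deposited counts as log2 CPM, with TMM factors (edgeR 4.0.16) and a prior count of 2. Genes with a mean of at least 1 CPM entered spread counts. A gene was counted as variable at 2-fold between the highest and lowest library. The SD from counting alone is the Poisson error. Group shares are of all listed counts. With 1 group there was no test. The spread calculation was tested on simulated data.

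Named genes were the top 20 by FPKM and by share of counts, the top 10 noncoding genes on both scales, the 3 most abundant and 2 most variable members of each list, the 30 coding genes and 10 noncoding genes of highest SD with at least 5 CPM, the 10 of lowest SD with at least 50 CPM, and 6 key genes. Fasn, Mup20, Orm2 and Gm20649 fall outside the rule and were picked with their values in view. The members and lists were chosen with earlier results of these data known, so the shares of lists past 2-fold are a description. Short-gene counts and the TATAA search were also chosen after the data were seen. Alternatives were DESeq2 1.42.0 size factors, library totals, log2(FPKM + 0.1), a prior count of 0.5, other minimums, and leaving out each library.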

Additional observations from a re-analysis of the deposited data

How the results depend on the processing

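Counts and FPKM gave different shares: by FPKM, noncoding RNA held 20.5%, metabolic enzymes 15.4% and mitochondrial DNA transcripts 3.72%, and 48 genes held 50%. Without genes whose span overlaps that of a coding gene on either strand, noncoding RNA held 2.64%. Secreted and nuclear-encoded mitochondrial shares moved by less than 1 SD under every alternative run. Leaving out genes of shared exons, an alternative chosen after seeing the data, moved no share it was run on by 1 SD. The count of genes that differ 2-fold was 2051 with no filter and 235 at a mean of at least 10 CPM. It was 265 to 497 with 1 library left out: 497 without library 1, 414 without library 2 and 265 without library 3. The other scalings, the FPKM scale, the prior count and, chosen after seeing the data, genes over 300 bases gave 633 to 771 against 746. The median SD of log2 CPM of the 30 most variable coding genes, 1.56, was 0.99 to 1.84 with 1 library left out, the lowest without library 1. Of the 40 most variable genes, the SD moved by over 1.5 times in 17 without library 1, 8 without library 2 and 12 without library 3, and in 0 under the 6 other settings. The share of mitochondrial DNA transcripts has no value with those transcripts left out. No paired analysis was possible because only 1 group was used and nothing was compared between groups. The share past 2-fold was 11.1% at 1 to 10 CPM, where the median SD was 0.216 against 0.118 from counting, 2.8% at 10 to 100 CPM and 7.69% above 1000 CPM.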
